A study of Mus musculus with 4 samples.

Results

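Metabotropic glutamate receptors are G protein-coupled receptors for glutamate, and the 6 genes described here are Grm5 of group I, Grm2 and Grm3 of group II, and Grm4, Grm7 and Grm8 of group III. They were chosen by name, from the GENCODE M21 symbol of each Ensembl identifier, and make up 6 of the 31053 genes in the count tables. All 6 passed the filter on low counts, which kept 12336 genes.

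Group I receptors couple to Gq, which activates phospholipase C and releases calcium from internal stores, and they sit mainly around the postsynaptic density. Group II and group III receptors couple to Gi/o, which inhibits adenylyl cyclase, and many of them sit on axon terminals where they reduce transmitter release. In the cortex these receptors adjust synaptic strength over slower times than the ionotropic glutamate receptors, which are themselves ion channels.

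The samples were primary cortical neuron cultures of WT genotype, prepared from E18 C57BL/6J mouse embryos and treated with floxuridine to hold back dividing cells. Ribosome association was measured by eCLIP, in which RNA crosslinked to a protein is fragmented with RNase I, pulled down with an antibody and sequenced. The antibody recognised RPS2, which belongs to the small subunit of the ribosome, so the IP libraries sample RNA fragments crosslinked to that protein. There were 2 RPS2 IP libraries and 2 total RNA libraries, and the total RNA was set aside ahead of the pulldown. By the labels, rRNA was depleted from the IP libraries and the total RNA was left untreated, and any effect of that step cannot be told apart from the IP. The paper places depletion after library preparation and does not say for which libraries. Whether the replicates came from separate dissections is not given in the sources used here, so p-values measure the spread between these libraries, which may be technical.

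Library totals ran from 4899718 to 16460545 counts, and the 6 receptor genes together took 5930 and 3862 counts in the IP replicates and 2185 and 2353 in those of total RNA. A single gene, Gm42418, held 42.6% and 27.9% of the counts in the IP replicates. In those of total RNA it held 39.8% and 15.3%. The cultures carried neuron markers at 2744 to 3177 summed CPM, that is counts scaled to a common effective library size, over 5 genes, while 3 endothelial markers summed to 1.64 CPM or less, with Cldn5 at 0 in every library. Markers of glia were higher in replicate 1 than in replicate 2. Summed over 8 astrocyte markers, the total RNA libraries held 1765 and 686 CPM and the IP libraries 2037 and 684 CPM. Over 6 microglia markers the sums were 60.1 and 4.93 CPM in total RNA and 60.4 and 6.83 CPM in the IP.

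The sequence around the start codon is shown because the small subunit, which carries the RPS2 pulled down here, joins there with the large one. It is given for the transcript of each gene with the longest coding sequence. Each line runs 5′ to 3′ from 6 bases before the start codon, which is in capitals, and was read from the GENCODE M21 transcripts, which are on mm10.
Grm5: cctaaaATGgtccttctgttgattctgtca
Grm2: ggggccATGgaatccctgcttaggttcctg
Grm3: ggattcATGaagatgttgacaagactacaa
Grm4: tccgaaATGtccgggaagggaggctgggcc
Grm7: agcggcATGgtccagctggggaagctgctc
Grm8: gagaaaATGgtttgtgagggaaagcgctca
Vertebrate start codons often carry a purine 3 bases before the ATG and a G directly after it. Of the 6 receptors, 4 had both (Grm5, Grm2, Grm7 and Grm8), against 40.9% of 20813 genes with a start codon context. Grm4 had the purine and no G, and Grm3 had neither, as did 7.81% of those genes. These letters are a description and were not tested against ribosome association.

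The genes differ in size far more than their proteins do, and coordinates are given on mm10. Grm5 (ENSMUSG00000049583) lies on chromosome 7 from 87584168 to 88134907 on the plus strand, with 10247 exonic bases counted. Of the group II genes, Grm2 (ENSMUSG00000023192) lies on chromosome 9 from 106643095 to 106656082 on the minus strand, with 4894 exonic bases, and Grm3 (ENSMUSG00000003974) on chromosome 5 from 9485541 to 9725170 on the minus strand, with 3049. Among group III genes, Grm4 (ENSMUSG00000063239) lies on chromosome 17 from 27422387 to 27521403 on the minus strand, with 5977 exonic bases. Grm7 (ENSMUSG00000056755) spans chromosome 6 from 110645581 to 111567230 on the plus strand, with 5886, and Grm8 (ENSMUSG00000024211) spans chromosome 6 from 27275119 to 28135178 on the minus strand, with 9898. Their coding sequences ran from 872 codons in Grm2 to 1203 codons in Grm5. Coding bases thus made up 86.5% of the exonic length of Grm3 and 27.5% of that of Grm8.

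Reads of the Grm8 locus need 1 caution. The hairpin of microRNA Mir592, on chromosome 6 from 27936655 to 27936750, lies with all 96 of its bases in counted exons of Grm8 on the same strand, so its reads would count toward Grm8. Its mature arms, from RefSeq on GRCm38.p6, are printed with the seed, bases 2 to 8, in capitals.
mmu-miR-592-5p: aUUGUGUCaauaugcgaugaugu
mmu-miR-592-3p: uCAUCACGuggugacgcaacau
How much of the Grm8 count they contribute was not tested. On the opposite strand, Gm28111 shares exonic bases with Grm2 and was at 0 counts in every library. Gm20387 shares exonic bases with Grm7, with 10 and 6 IP counts against 1 and 0 for total RNA. Counting was by strand, so reads of these antisense genes were kept apart from those of the receptors.

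Levels between genes were compared as CPM per kilobase of exonic length. Grm7, a low-affinity receptor of the presynaptic active zone, had the highest mean level of the 6 in both groups, and Grm8, another presynaptic receptor, the lowest. Grm7 measured 26.4 and 31.2 CPM per kilobase in total RNA replicates 1 and 2, a mean of 28.8 ± 3.36 (SD, n = 2). In the IP it measured 19.0 and 26.4, a mean of 22.7 ± 5.20 (SD, n = 2). Averaged over the 4 libraries, Grm7 lay above 90.4% of all genes tested.

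Grm5 encodes the Homer-binding group I receptor. Its levels were 16.5 and 9.83 CPM per kilobase in total RNA and 15.6 and 9.15 in the IP, with replicate 2 the lower in both groups. Group II lay close to it. Grm3, which astrocytes also express, measured 11.8 and 9.38 CPM per kilobase in total RNA and 18.5 and 9.22 in the IP. Grm2, largely a presynaptic autoreceptor, measured 12.2 and 6.15 CPM per kilobase in total RNA and 12.9 and 6.92 in the IP. For both genes the IP and total RNA values overlapped.

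The remaining group III receptors were lower. Grm4, known for its high expression in cerebellar granule cells, measured 10.4 and 6.79 CPM per kilobase in total RNA and 5.93 and 5.36 in the IP, so the IP values of both replicates were under those of total RNA. Grm8 measured 0.427 and 0.316 CPM per kilobase in total RNA and 0.226 and 0.399 in the IP, from 19 and 19 counts and from 31 and 44 counts. Its IP and total RNA values overlapped.

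**Figure D1:**
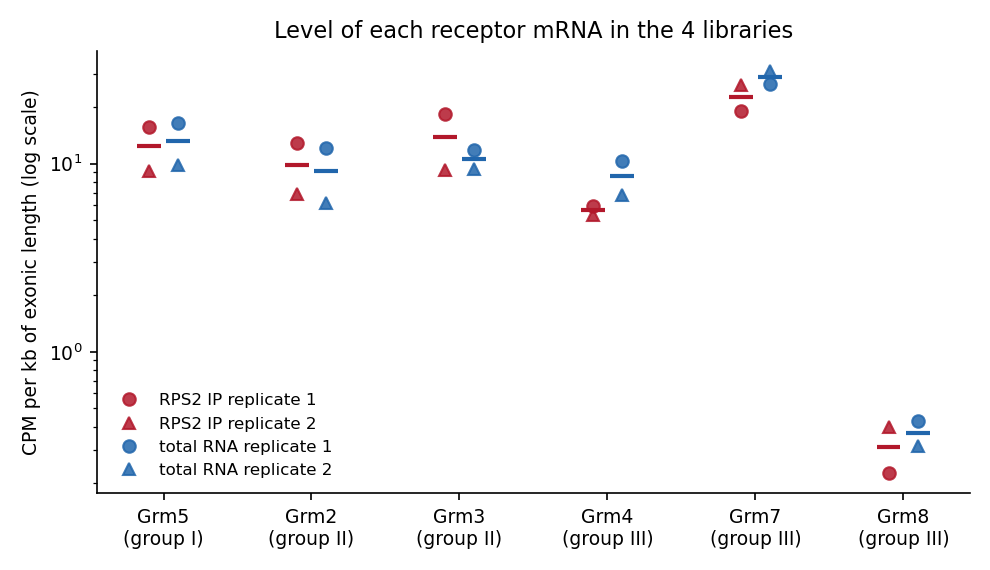
Level of each receptor gene in CPM per kilobase of exonic length, on a log axis, with 1 point per library (circles for replicate 1, triangles for replicate 2), a bar at each group mean and the genes ordered by receptor group. Grm7 reaches 31.2 in total RNA, Grm8 stays at or below 0.427 in every library, and the IP points of Grm4 lie under its total RNA points.

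In total RNA the order of the mean levels was Grm7, Grm5, Grm3, Grm2, Grm4 and Grm8. Grm7 stood clear of Grm5, and Grm4 of Grm8, while each neighbouring pair between Grm5 and Grm4 overlapped across libraries. In the IP the order was Grm7, Grm3, Grm5, Grm2, Grm4 and Grm8, and only the pairs Grm3 with Grm5 and Grm5 with Grm2 overlapped. The middle of both orders depended on the length used. With the length of the longest transcript in place of all exons, Grm4 moved from the fifth place to the third in total RNA. In the IP, Grm5 then passed Grm3, with means of 15.8 and 13.8 CPM per kilobase. Without total RNA replicate 1, Grm4 passed Grm2 in total RNA. Grm6, the group III receptor of retinal ON bipolar cells, had at most 1 count in a library.

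As shares of the summed per-length level of the 6 genes, group III held 47.9% and 60.2% in total RNA, group II 30.9% and 24.4%, and group I 21.2% and 15.4%. In the IP, group III held 34.9% and 55.9%, group II 43.5% and 28.1%, and group I 21.6% and 15.9%. With all exonic bases as the length, group II thus exceeded group III in IP replicate 1 and in no other library. That order depended on the length used. With the length of the longest transcript, the mean IP level rose from 22.7 to 31.7 CPM per kilobase for Grm7 and stayed at 13.8 for Grm3. Group III is then the higher in IP replicate 1 as well. The log2 ratio of group III to group II over all exonic bases does not depend on library scaling. This ratio was -0.32 and 0.99 for the IP, against 0.63 and 1.30 for total RNA. Its IP and total RNA values overlapped (two-sided exact permutation test without pairing, p = 0.667), and with 2 libraries against 2 that test cannot go below 0.333. Within the pairs the ratio was lower in the IP both times, with differences of -0.95 and -0.31.

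Grm5 and Grm2 were lower and Grm7 was higher in replicate 2 than in replicate 1, in both kinds of library. From replicate 1 to replicate 2, the log2 CPM of Grm5 differed by -0.74 in total RNA and -0.77 in the IP, and that of Grm2 by -0.98 and -0.89. Grm7 differed in the other direction, by 0.24 and 0.47. These differences have no replicate of their own, and the SD of the same difference over all genes tested was 0.78 in total RNA and 0.69 in the IP. Grm3 differed by -0.33 in total RNA and -0.996 in the IP, and Grm4 by -0.61 and -0.14. Grm8 had opposite signs, -0.41 and 0.76.

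Of the 6 genes, 4 (Grm5, Grm2, Grm3 and Grm4) were lower in replicate 2 in both kinds of library and Grm7 was higher in both. Over all genes tested, 38.4% were lower and 37.4% higher in both. The count depends on the scaling, since scaling by library size alone moved the median of all genes to 0.53 in total RNA and 0.41 in the IP. Grm3 was then at 0.21 in total RNA and Grm4 at 0.27 in the IP, so neither was lower in both. Grm5 was at -0.20 and -0.36, Grm2 at -0.44 and -0.48, and Grm7 at 0.78 and 0.89. Beside this, the summed level of the 8 astrocyte markers differed by -1.36 on the log2 scale in total RNA and -1.57 in the IP, that of the 6 microglia markers by -3.61 and -3.14, and that of the 7 oligodendrocyte lineage markers by -0.30 and -0.33. The part of these cells in the receptor levels was not tested. In such bulk samples, fewer cells of a type and less RNA per cell cannot be told apart.

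**Figure D2:**
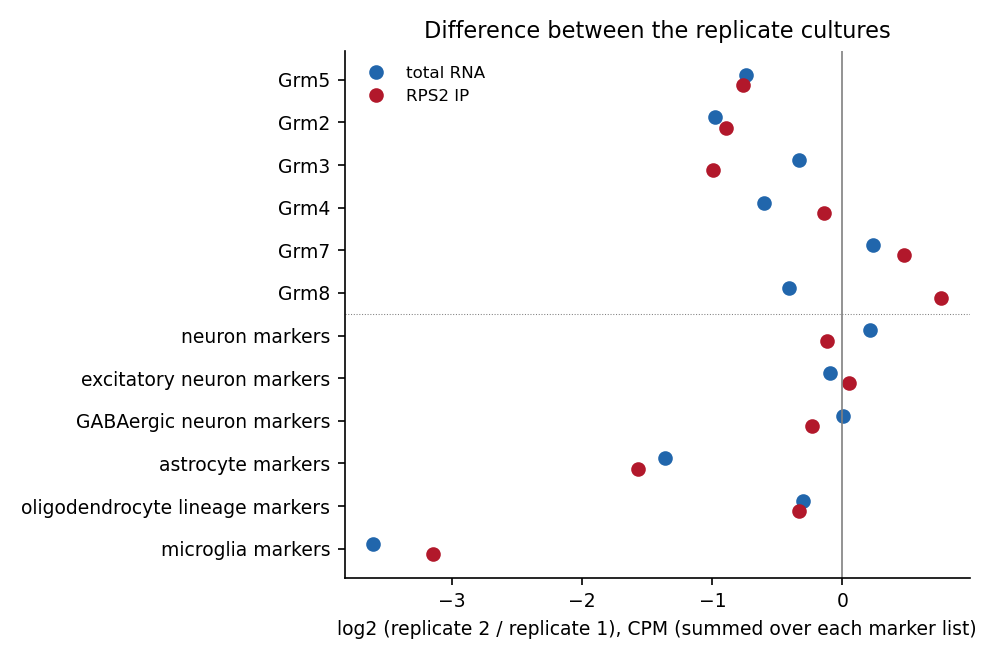
Log2 ratio of CPM in replicate 2 to that in replicate 1 (x axis) for each receptor gene and, under the dotted line, for the summed CPM of each marker list, with total RNA in blue and the IP in red. Grm7 lies above 0 in both kinds of library, Grm5 and Grm2 lie below 0 in both, and the microglia markers lie farthest out at -3.61 and -3.14.

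The study made these libraries as a measure of ribosome occupancy on mRNAs in neurons, which the comparison of IP with total RNA gives gene by gene. Of the 6 receptors, the group III genes Grm4 and Grm7 had less RNA in the IP than in total RNA, in both replicates, and the group I gene Grm5 and the group II gene Grm2 differed little. None of these differences passed the unpaired test, and neither did any other gene. In edgeR's quasi-likelihood test with Benjamini-Hochberg adjustment over 12336 genes, 0 of the 6 receptors had an adjusted p under 0.05, as did 0% of all genes. At an unadjusted p under 0.05 there were 0 receptors and 2.83% of all genes, and DESeq2 without pairing also called 0 receptors.

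Total RNA was taken from the samples ahead of the pulldown, and the deviations of same-numbered libraries from the group means correlated at 0.733 across genes. With the replicate number as a block, edgeR called 14.2% of all genes, 6.63% higher and 7.55% lower in the IP, and 2 of the 6 receptors, both lower. This fit has 1 residual degree of freedom and takes its spread wholly from the trend over all genes. The spread of a single gene between the pairs was thus given no weight in its p-value. With DESeq2 and the same block, the adjusted p was 0.0567 for Grm4 and 0.0609 for Grm7, and 0 receptors were called.

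Grm4 had 490 and 357 IP counts against 278 and 247 for total RNA, or 35.4 and 32.1 against 61.9 and 40.6 CPM. Both IP libraries were lower than both total RNA libraries, as for 14.9% of all genes tested. Within the pairs the log2 ratio of IP to total RNA was -0.81 (95% counting interval -1.02 to -0.59) and -0.34 (-0.58 to -0.10), and these intervals cover counting error only. The unpaired log2 fold change was -0.60 ± 0.27 (SE), with an edgeR p of 0.0734 and an adjusted p of 1.00. With the block, Grm4 fell by 0.58 ± 0.13 (SE) on the log2 scale, to 0.669 of its level in total RNA, with an edgeR adjusted p of 1.86e-04. Without pairing, leaving out total RNA replicate 1 gave -0.27, and leaving out total RNA replicate 2 gave -0.88.

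Grm7 had 1547 and 1727 IP counts against 699 and 1117 for total RNA, or 112 and 155 against 156 and 184 CPM. The IP was below total RNA in both pairs, while IP replicate 2 and total RNA replicate 1 were nearly level. Those libraries changed order with the scaling, so that the groups overlapped with library size alone (174 against 132 CPM) and with totals that left out Gm42418 (241 against 220 CPM). The paired log2 ratios were -0.48 (95% counting interval -0.61 to -0.35) and -0.24 (-0.35 to -0.13). Without pairing, the log2 fold change was -0.35 ± 0.25 (SE), with an edgeR p of 0.218 and an adjusted p of 1.00. With the block, Grm7 fell by 0.36 ± 0.10 (SE) on the log2 scale, to 0.781 of its total RNA level, with an edgeR adjusted p of 0.00633. Without pairing, leaving out IP replicate 1 gave -0.13, leaving out total RNA replicate 2 gave -0.22, and leaving out IP replicate 2 gave -0.61.

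Grm8, the third gene of group III, gave no such pattern. Its 31 and 44 IP counts, against 19 and 19 for total RNA, gave log2 ratios of opposite sign in the 2 pairs, -0.92 (95% counting interval -1.79 to -0.01) and 0.34 (-0.47 to 1.20). Its blocked log2 fold change was -0.25 ± 0.42 (SE) at an adjusted p of 0.758 in edgeR, with a 95% interval of -1.07 to 0.56, which takes in the values of Grm4 and Grm7.

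In group I, Grm5 had 2211 and 1044 IP counts against 759 and 613 for total RNA. IP and total RNA overlapped, and the ratios within pairs were close, at -0.08 (95% counting interval -0.20 to 0.04) and -0.10 (-0.25 to 0.04). The blocked log2 fold change was -0.09 ± 0.10 (SE) at an adjusted p of 0.631 in edgeR and a 95% interval of -0.30 to 0.11.

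In group II, Grm2 had 872 and 377 IP counts against 268 and 183 for total RNA. Its ratios were above 0 in both pairs, at 0.08 (95% counting interval -0.12 to 0.28) and 0.17 (-0.09 to 0.43), and both counting intervals include 0. The blocked log2 fold change was 0.12 ± 0.13 (SE) at an adjusted p of 0.592 in edgeR and a 95% interval of -0.12 to 0.37. Grm3, with 779 and 313 IP counts against 162 and 174 for total RNA, differed between the pairs. It was higher in the IP in pair 1, by 0.64 (95% counting interval 0.40 to 0.90), and level in pair 2, at -0.02 (-0.30 to 0.25). Its blocked log2 fold change was 0.32 ± 0.14 (SE) at an adjusted p of 0.0910 in edgeR.

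**Figure D3:**
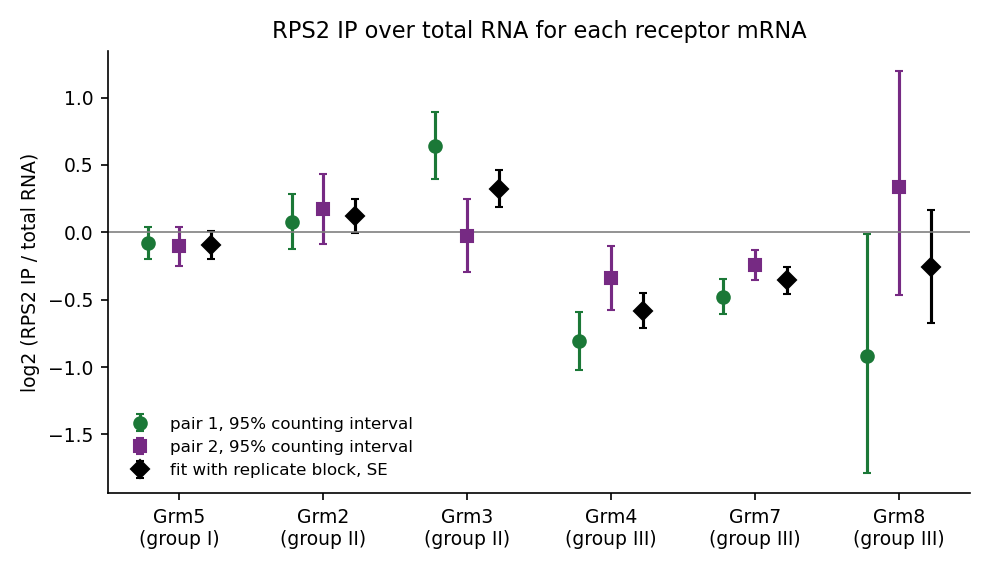
Log2 ratio of IP to total RNA (y axis) for each receptor gene, in pair 1 and pair 2 of same-numbered libraries with 95% counting intervals, and in the fit with the replicate block with its SE (diamonds). Both pairs of Grm4 and of Grm7 have intervals below 0, and the pairs of Grm3 lie apart, at 0.64 and -0.02.

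By receptor group, the summed per-length level of group III was lower in the IP in both pairs, at -0.57 and -0.25 on the log2 scale, and that of group II was 0.38 and 0.06. Group I, given here by Grm5, stood at -0.08 and -0.10, and all 6 genes together at -0.11 and -0.15. Ratios between receptors within a library, which do not depend on scaling, were taken for 5 pairs of genes. The log2 ratio of Grm4 to Grm3, the genes with the lowest and the highest fold change, was -1.64 and -0.78 for the IP, against -0.19 and -0.47 for total RNA, with no overlap (two-sided exact permutation test, p = 0.333, the smallest that this design allows). Both genes are extremes of the same comparison in the same libraries, so this lack of overlap adds no separate support. The groups overlapped for Grm7 to Grm5, Grm7 to Grm3 and Grm4 to Grm7 (exact permutation p = 0.667 each) and for Grm2 to Grm3 (exact permutation p = 1.00). Among the 6 genes, 3 were below total RNA in both pairs and 1 was above, where 32.2% of all genes tested were below and 34.3% above in both. With totals that left out Gm42418, Grm3 was also above in both, at 0.70 and 0.06. The median blocked log2 fold change of the 6 was -0.17, and that of all genes tested was 0.01.

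Base composition moved with these ratios. Across 12328 genes, the Spearman correlation of the blocked fold change with the GC content of the transcripts was -0.315 and that with exonic length was -0.171, given as descriptions since genes share libraries. Grm4, at 59.8% GC, was richer in GC than 94.99% of the genes tested, and Grm2, at 57.8%, than 88.1%. The other receptors lay between 45.8% and 48.1%, below the median of 50.5%. Grm2 and Grm4 had blocked fold changes of 0.12 and -0.58, and the part of GC content in either value was not tested.

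An offset for GC content and length, added to the blocked fit, left the call of Grm7 and ended that of Grm4. It brought the correlation with GC to -0.01 and called 7.33% of all genes, 4.74% higher and 2.59% lower in the IP. Grm4 was then at -0.28, with an edgeR adjusted p of 0.188. Grm7 was at -0.38, with an edgeR adjusted p of 0.00492. Grm2 was at 0.34, with an edgeR adjusted p of 0.0776, and Grm3 at 0.17, with an edgeR adjusted p of 0.532. Grm5 and Grm8 changed by little, to -0.06 and -0.24.

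**Figure D4:**
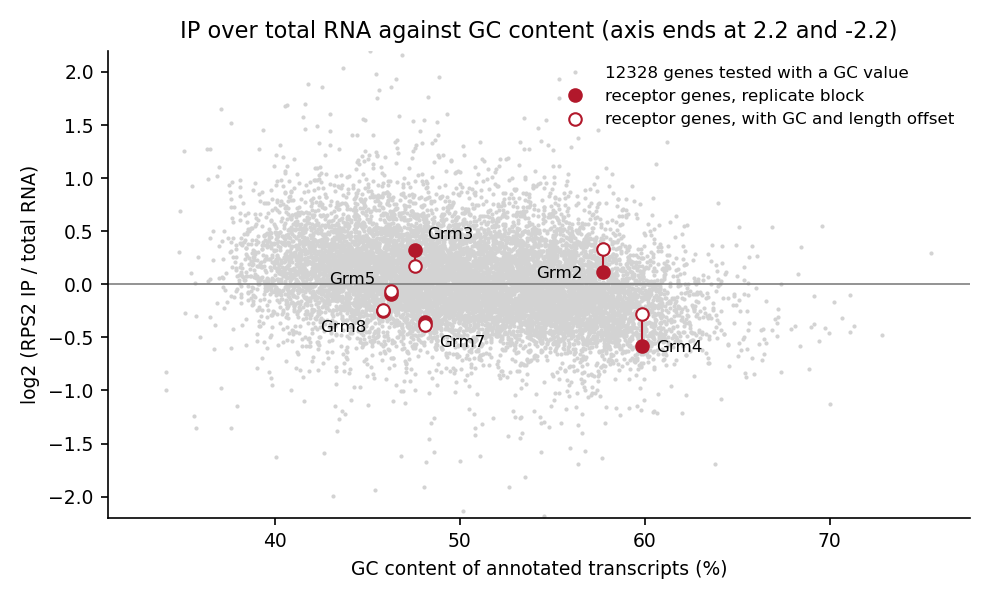
Log2 fold change of IP over total RNA (y axis) against GC content of the transcripts in percent (x axis), for 12328 genes in grey in the blocked fit and for the receptors in the blocked fit (filled) and with the GC and length offset (open). Grm4 at 59.8% GC moves from -0.58 to -0.28, Grm7 at 48.1% from -0.36 to -0.38, and 23 genes lie outside the y axis.

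The genes that carry the receptors' signals were taken as lists of pathway members. In the unpaired edgeR fit 0 genes of any list were called, as were 0% of all genes, and Gng3 and Elfn1 alone had an unadjusted p under 0.05. With the block, the Gq arm of group I had 0 higher and 2 lower of 11 genes tested (0% and 18.2%), where 6.63% of all genes were higher and 7.55% lower. Dgkz, which removes the phospholipase C product diacylglycerol, fell by 0.46 on the log2 scale with an edgeR adjusted p of 1.05e-04. Itpr1, the calcium channel opened by inositol trisphosphate, fell by 0.33 with an edgeR adjusted p of 0.0105. Prkcb, a protein kinase C and the most abundant of the list by CPM, was at -0.03. The list's median was -0.05.

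The Gi/o arm of groups II and III had 1 higher and 3 lower of 20 genes tested (5% and 15%, against 6.63% and 7.55% of all genes), with a median of 0.10. Gng3, a G protein gamma subunit, measured 93.5 and 114 CPM in the IP and 52.1 and 71.7 CPM in total RNA, with no overlap. It rose by 0.75 ± 0.11 (SE) on the log2 scale with an edgeR adjusted p of 6.01e-09 in the blocked fit. Kcnj9, a subunit of the potassium channels that G protein beta and gamma subunits open, fell by 0.47. The adenylyl cyclases Adcy1 and Adcy5 fell by 0.33 and 0.28. Gnao1, the Go alpha subunit and the most abundant of the list by CPM, was at 0.18 with an edgeR adjusted p of 0.239.

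Proteins that bind or regulate the receptors formed the list with the most calls, 1 higher and 8 lower of 19 genes tested (5.26% and 42.1%, against 6.63% and 7.55% of all genes), with a median of -0.15. With the GC and length offset the list had 2 higher and 0 lower, and a median of 0.02. Elfn1, a postsynaptic protein that recruits Grm7 across the synapse, measured 18.3 and 13.1 CPM in the IP and 28.3 and 23.0 CPM in total RNA, with no overlap. It fell by 0.72 ± 0.17 (SE) on the log2 scale with an edgeR adjusted p of 5.99e-04 in the blocked fit. The postsynaptic scaffolds Shank2, Shank3 and Shank1, which link to group I receptors through Homer, fell by 0.45, 0.45 and 0.41. Ncdn, a neuronal protein that binds Grm5 and the most abundant of the list by CPM, was at -0.10.

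Other receptors and transporters of the same transmitters were given for comparison. Of 17 ionotropic glutamate receptor subunits tested, 0 were higher and 3 lower (0% and 17.6%, against 6.63% and 7.55% of all genes), the kainate receptor subunits Grik5 and Grik3 and the NMDA receptor subunit Grin2d, at -0.51, -0.45 and -0.43. Grin1, the obligatory NMDA receptor subunit and the most abundant by CPM, was at -0.03. Of the GABA-B receptor subunits, relatives of the same receptor class, Gabbr2 fell by 0.46 with an edgeR adjusted p of 1.05e-04 and Gabbr1 was at -0.04. Among 7 genes of glutamate release and clearance, the astrocyte transporter Slc1a3 rose by 0.34 with an edgeR adjusted p of 0.00840, 0 were lower, and the most abundant, Slc1a2, was at 0.27 with an edgeR adjusted p of 0.0520.

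With the GC and length offset, 0 of the 76 tested genes of these lists were lower in the IP and 8 were higher (10.5%), where 2.59% of all genes were lower and 4.74% higher. Among the calls that stayed were Gng3 at 0.62 and Slc1a3 at 0.33. Those added were Gnai2 and Gnao1, both G protein alpha subunits, the arrestin Arrb1, Grin1 and Slc1a2. Elfn1 was then at -0.47 with an edgeR adjusted p of 0.0618, and Shank3 at 0.02. The genes named here for the offset alone were chosen after their values were seen.

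**Figure D5:**
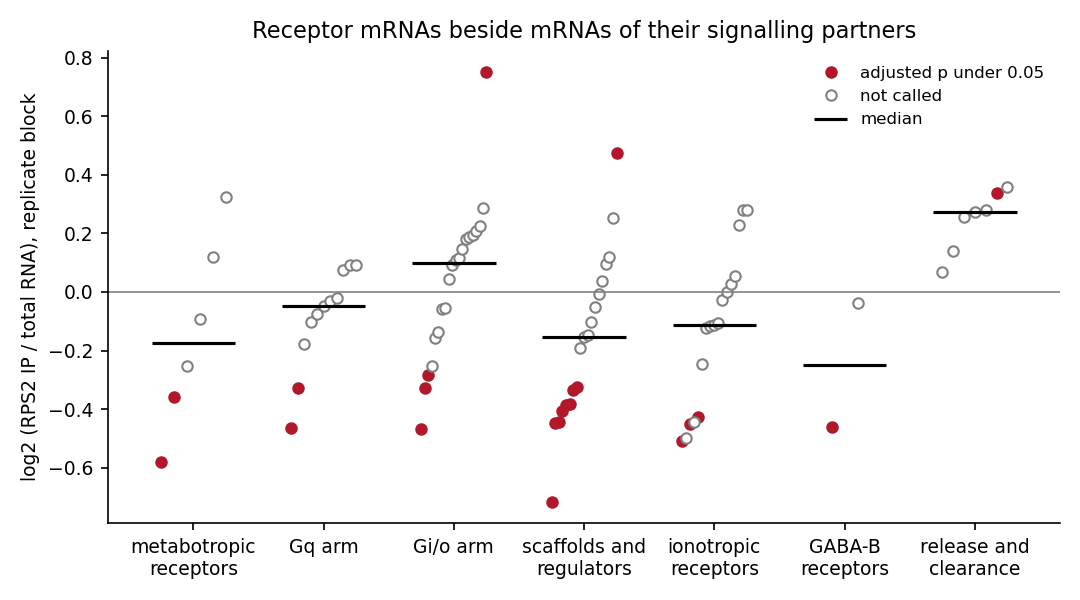
Log2 fold change of IP over total RNA in the blocked fit (y axis) for the 6 receptors and every tested gene of the signalling lists, with 1 point per gene, filled where the edgeR adjusted p was under 0.05, and a bar at each median. The scaffold and regulator proteins have a median of -0.15 with 8 filled points below 0, and glutamate release and clearance has a median of 0.27.

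The profile of Grm7, the receptor gene with the most counts, was compared with that of every gene tested by the Euclidean distance of centred log2 CPM over the 4 libraries. The nearest were Pgbd5 at 0.0387, Asb16 at 0.0470 and Klhl21 at 0.0610. Over only 4 libraries such likeness is common, and 434 genes lay within 0.25 of Grm7.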

How the data were processed

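The tables hold raw counts per gene, deposited by the authors as whole numbers with no normalisation, for 2 RPS2 eCLIP IP and 2 total RNA libraries. The authors trimmed reads with cutadapt, aligned them to mm10 with STAR and counted them by strand with featureCounts 1.5.3 over exons. A read in several genes or at several loci was not counted, and no removal of PCR duplicates is named. The exonic length of each gene came from the same tables.

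Symbols were taken from GENCODE M21 for 30934 of 31053 identifiers. IP and total RNA were compared with edgeR 4.0.16 under R 4.3.3 (filterByExpr, TMM, glmQLFit, glmQLFTest, two-sided, Benjamini-Hochberg over 12336 genes, threshold 0.05). The design was unpaired, and the alternative used the replicate number as a block, since total RNA was taken from the samples ahead of the pulldown and same-numbered libraries deviated together (correlation 0.733). The fits were tested on simulated data, in which the changed genes differed by 1 or 2 on the log2 scale. The blocked fit found most of these genes and the unpaired fit missed them all. Recovery of differences as small as those of Grm4 and Grm7 was not tested. Alternatives were DESeq2 1.42.0, limma-voom (limma 3.58.1), other scalings and filters, a GC and length offset, thinned libraries and leaving out each library. Library totals ran from 4899718 to 16460545 counts, and precision also depended on the block. The SE of the log2 fold change was 0.376 without and 0.104 with the block for Grm5, and 0.493 and 0.417 for Grm8. Intervals within pairs are exact binomial intervals at 95% and cover counting error only. Fitted 95% intervals are 1.96 SE.

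The members and gene lists were chosen with earlier results of these data known. Named are the receptors, list members called without pairing or, where none were, with the block (at most 4 per direction and list, by size), the member of each list with the highest CPM, and the 3 genes nearest in profile to the most counted receptor. Values of some single genes that this rule would name are not reported here.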

Additional observations from a re-analysis of the deposited data

How the results depend on the processing

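Without pairing, 0 genes passed in the higher and 0 in the lower direction, and 0 receptors and 0 signalling genes were called. Lower genes numbered 14 with no filter on low counts, 5 with DESeq2, and between 1 and 8 with 1 library left out. With the replicate block, 818 genes were higher and 931 lower (14.2% of all genes), with 2 of the 6 receptors and 20 signalling genes called. Of the 76 signalling genes tested, 3.95% were higher and 22.4% lower, against 6.63% and 7.55% of all genes. Under the block, higher and lower genes numbered 158 and 382 with DESeq2, 283 and 878 with library size scaling, 878 and 926 with at least 10 counts in every library, 769 and 699 with no filter, 585 and 319 after offsetting GC and length, 650 and 817 with thinned libraries, and 685 and 927 with limma-voom. Signalling genes called were 11, 15, 24, 17, 8, 19 and 21 in that order. The genes with an adjusted p numbered 4683, 12336, 10885, 18124, 12336, 11676 and 12336 in the same order, so these counts have unlike bases. Receptors called were 0 with DESeq2, 1 with the offset and 2 in each of the others. Why the offset and DESeq2 called fewer receptors was not tested.

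The direction of Grm4 and Grm7 held with each library left out, from -0.88 to -0.27 and from -0.61 to -0.13. Other receptors changed sign there: Grm5 ran from -0.53 to 0.33, Grm2 from -0.40 to 0.69, Grm3 from -0.20 to 0.80 and Grm8 from -0.71 to 0.11. Those fits were unpaired, so a library left out also brought the difference between the replicates into the fold change. In the 8 blocked fits, which share the same libraries, signs held. Grm5 ran from -0.17 to -0.06 there, Grm2 from 0.04 to 0.34, Grm3 from 0.17 to 0.35 and Grm8 from -0.34 to -0.23. In the total RNA order of levels, 3 genes changed place with the length of the longest transcript, and 2 with either total RNA library left out. Leaving out an IP library changed the place of 0 genes in the order for the IP, but with the length of the longest transcript Grm5 passed Grm3 there. With 2 libraries per group and 19 to 44 counts of Grm8 per library, only large differences of that gene could have been detected.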
